A study of Mus musculus with 6 samples.

Results

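Dbh and Pnmt, which encode enzymes of noradrenaline and adrenaline synthesis, and Phox2a, Hand1, Hand2, Insm1 and Isl1, which encode transcription factors of the sympathoadrenal lineage, were followed through RNA polymerase II ChIP-seq of mouse adrenal glands. They were taken by symbol, as 7 of the 12718 genes for which counts were deposited, and each was counted separately around its start site (TSS), over its body and around its transcription end site (TES). The antibody recognised the N-terminal domain of RPB1, the catalytic subunit of the polymerase, and the study compared wild-type (WT) mice with Armc5(-/-) knockout mice. All animals were females on a 129 sv X CD1 background, 10 to 14 months old, with 3 WT and 3 knockout libraries from 6 mice with different numbers in the labels. The labels name no treatment, Cre or transgene, and the material was the whole gland, with cortex, medulla and capsule together. Armc5 itself was not analysed here.

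Chromaffin cells of the adrenal medulla arise from the neural crest and make catecholamines. Dopamine beta-hydroxylase (Dbh) converts dopamine to noradrenaline inside the secretory granules, and phenylethanolamine N-methyltransferase (Pnmt) converts noradrenaline to adrenaline in the adrenaline-type cells, where glucocorticoid from the surrounding cortex is known to maintain it. Phox2a and Isl1 carry homeodomains, Hand1 and Hand2 are basic helix-loop-helix factors, and Insm1 is a zinc-finger factor, all known from the development of sympathetic neurons or chromaffin cells. Since the medulla is a small part of the gland, a bulk signal over these genes depends on how many chromaffin cells a sample holds, and fewer such cells and less polymerase per cell cannot be told apart in these libraries.

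RefSeq promoter sequences of build GRCm38.p6 were found for Dbh, Phox2a, Hand2 and Isl1. The bases upstream of the start are shown because RPB1 at the TSS was among the measurements and because Phox2a and Isl1 belong to the homeodomain class, whose core site is ATTA. They are Dbh (chr2:27165257-27165506, plus strand), Phox2a (chr7:101818063-101818312, plus strand), Hand2 (chr8:57320733-57320982, plus strand) and Isl1 (chr13:116309689-116309938, minus strand), each of 250 bases in the direction of transcription, with capitals marking ATTA on either strand.
Dbh: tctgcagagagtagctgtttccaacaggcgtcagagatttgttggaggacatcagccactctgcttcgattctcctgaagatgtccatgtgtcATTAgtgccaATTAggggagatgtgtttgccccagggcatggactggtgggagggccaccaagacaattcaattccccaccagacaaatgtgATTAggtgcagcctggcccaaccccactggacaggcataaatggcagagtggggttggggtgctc
Phox2a: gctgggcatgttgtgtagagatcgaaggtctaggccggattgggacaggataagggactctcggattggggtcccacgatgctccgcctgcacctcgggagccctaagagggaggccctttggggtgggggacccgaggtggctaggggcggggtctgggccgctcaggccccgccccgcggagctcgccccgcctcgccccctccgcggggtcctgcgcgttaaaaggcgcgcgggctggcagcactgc
Hand2: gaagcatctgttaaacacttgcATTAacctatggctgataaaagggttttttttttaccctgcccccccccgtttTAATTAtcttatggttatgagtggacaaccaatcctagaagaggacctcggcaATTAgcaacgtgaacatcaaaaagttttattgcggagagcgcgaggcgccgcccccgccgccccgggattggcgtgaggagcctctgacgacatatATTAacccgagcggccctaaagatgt
Isl1: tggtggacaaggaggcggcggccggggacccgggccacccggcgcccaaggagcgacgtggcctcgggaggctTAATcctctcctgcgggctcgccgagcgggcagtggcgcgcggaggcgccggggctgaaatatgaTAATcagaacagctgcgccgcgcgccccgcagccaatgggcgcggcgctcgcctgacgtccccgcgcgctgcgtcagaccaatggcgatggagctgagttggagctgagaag
The Dbh stretch held 3 ATTA matches, the Hand2 stretch 5 (including an overlapping pair in TAATTA), the Isl1 stretch 2 and the Phox2a stretch 0. Of 32851 RefSeq promoter windows of the same length, 54.9% held at least 1 ATTA and 9.62% held 4 or more. The basic helix-loop-helix motif CANNTG, which reads the same on both strands, was found in 66.2% of windows, with 2 matches for Dbh, 2 for Hand2, 1 for Isl1 and 0 for Phox2a. The GC content was 53.2% for Dbh and 49.2% for Hand2, against 70.4% for Phox2a and 71.2% for Isl1. These matches are letters in a window and no binding was measured.

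Summed over the 3 regions, the libraries held 22203948, 14511177 and 26748906 counts for WT replicates 1, 2 and 3 and 17936275, 28190157 and 24714835 for knockout replicates 1, 2 and 3. WT replicates 1 and 2 and knockout replicate 1 were thus the shallowest libraries, and WT replicate 3 and knockout replicates 2 and 3 the deepest. The share of counts at the TSS ran from 7.81% in WT replicate 2 to 12.1% in knockout replicate 2. Levels are given as CPM, counts divided by the scaled total of that region's table in that library and multiplied by 1000000, in the order of replicates 1, 2 and 3, so CPM of different regions are on different scales. Member counts ran from 10 to 450 (TSS), 72 to 1942 (gene body) and 25 to 1911 (TES), so the TSS values of Hand1, Pnmt, Dbh and Insm1, with 10 to 17 reads in their lowest library, rest on few reads.

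All 7 members had a log2 fold change above 0 in knockout against WT at the TES and over the gene body, as did 5 at the TSS, but none passed the test in any region (edgeR quasi-likelihood test, TSS adjusted p from 0.727 to 0.997, gene body 0.890 to 0.949, TES 0.0941 to 0.991). Among all genes tested, 0.339% (TSS), 0.252% (gene body) and 0.915% (TES) were called, and the share with a log2 fold change above 0 was 48.4%, 46.3% and 47.8%. The median log2 fold change of the members was 0.52 (TSS), 0.80 (gene body) and 0.77 (TES), against -0.01, -0.02 and -0.02 over all tested genes. Relative to the median of all genes, 5 members were higher at the TSS under table totals and 6 under joint table scaling, cyclic loess or a depth class term. At the TES 7 were higher under joint table scaling and 5 with the depth class term. An unadjusted p under 0.05 was reached by 2 members in the TSS table (Phox2a and Hand2), 1 in that of the gene body (Hand1) and 4 in that of the TES (Pnmt, Hand1, Hand2 and Isl1), where 5.57%, 5.05% and 6.85% of all genes reached it. DESeq2, limma-voom and limma-voom with cyclic loess also called 0 members in each region.

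Knockout replicate 2 stood apart for these genes. It was the highest of the 6 libraries for 6 members in the TSS table and for 7 in each of the others, where 18.8%, 19.7% and 18.1% of all tested genes had their highest value in that library. Its CPM was at least 2 times the median of the other 5 libraries for 3 members (TSS), 6 (gene body) and 5 (TES), against 2.02%, 0.747% and 0.907% of all tested genes. WT replicate 3 was the highest WT library for 3 members at the TSS and 6 in each of the other tables, against 37.7%, 41.9% and 36.3% of all tested genes. Without knockout replicate 2, the members' median log2 fold change was 0.10 (TSS), 0.11 (gene body) and 0.05 (TES), with 4, 6 and 4 members above 0 and no adjusted p below 0.999765.

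Over the gene body and at the TES, most members also followed library depth, taken here as the counts summed over the 3 regions. In the gene body the 3 deepest libraries all lay above the 3 shallowest for 5 members (Dbh, Pnmt, Phox2a, Hand2 and Insm1), against 20.5% of all tested genes, and at the TES for 6 (these and Hand1), against 9.96%. At the TSS this held for Isl1 alone, against 15.7%. With depth class as a covariate, the median log2 fold change of the members was 0.49 (TSS), 0.41 (gene body) and 0.37 (TES), and 0 members were called. Since the deeper class holds 1 WT and 2 knockout libraries, depth and genotype are partly confounded, and the part of depth in the levels was not tested. The 3 deepest libraries also had the highest shares of counts at the TSS. These were 11.2% in WT replicate 3 and 12.1% and 10.5% in knockout replicates 2 and 3, against 7.81% to 9.93% in the shallowest. Depth and this share therefore cannot be told apart here.

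**Figure D1:**
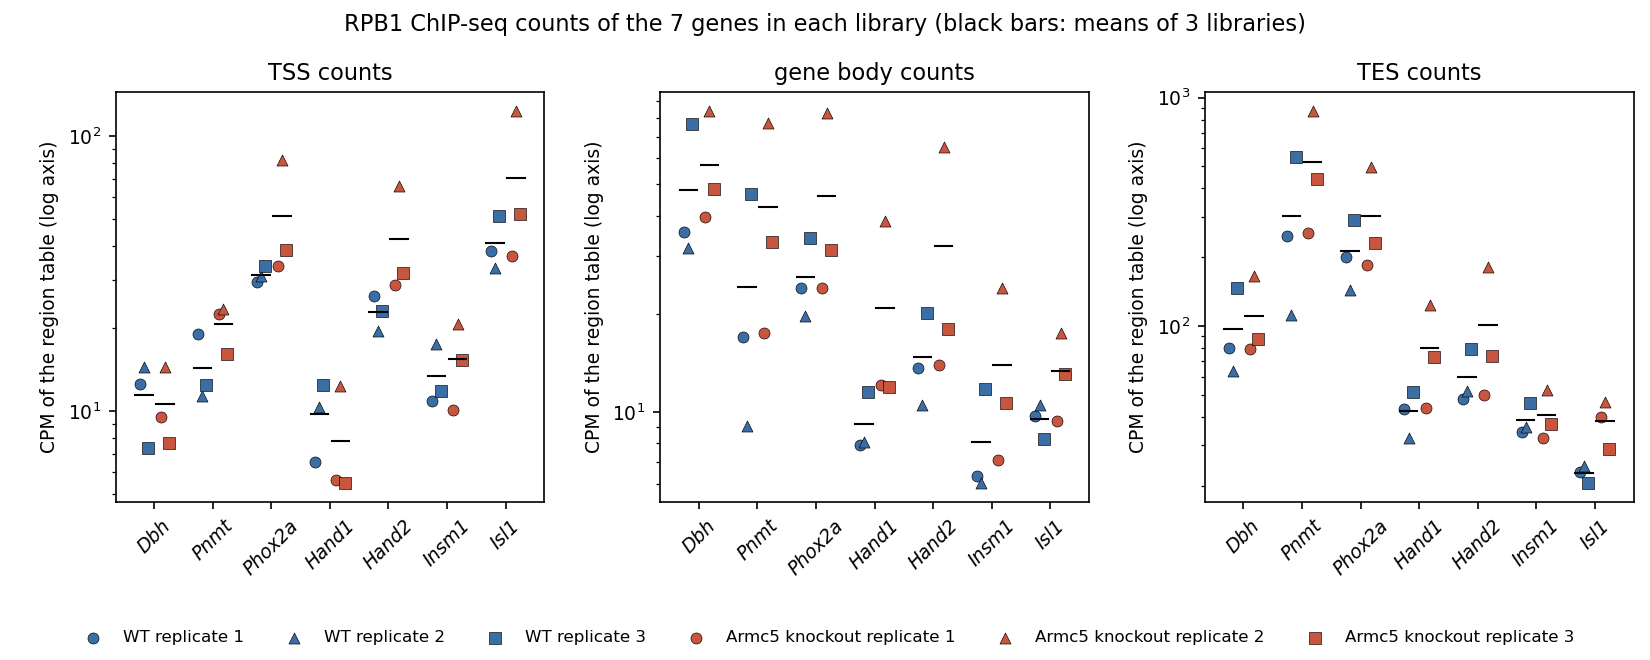
CPM (log axis) of the 7 genes in each of the 3 WT and 3 knockout libraries, 1 point per library, for the TSS, gene body and TES. Knockout replicate 2 was the highest point for 20 of the 21 gene and region pairs.

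Dbh, the noradrenaline-forming enzyme, gave the fold changes nearest to 0 among the members in the TSS and gene body tables. In the gene body its level was 35.6, 31.9 and 76.6 CPM in WT against 39.7, 83.9 and 48.2 CPM in knockout glands. The high values were in WT replicate 3 and knockout replicate 2, and the groups overlapped. This gave a gene body log2 fold change of 0.25 ± 0.39 (SE; 95% confidence interval -0.64 to 1.14; edgeR adjusted p = 0.949). At the TES Dbh had 79.8, 63.7 and 147 CPM in WT against 78.9, 165 and 88.0 CPM in knockout glands, with the same 2 libraries on top and a log2 fold change of 0.18 ± 0.27 (-0.37 to 0.73; edgeR adjusted p = 0.977). At the TSS it had only 14 to 53 reads per library, or 12.5, 14.5 and 7.36 CPM in WT against 9.57, 14.5 and 7.68 CPM in knockout glands. The groups covered the same range there, and the log2 fold change was -0.04 ± 0.43 (-0.98 to 0.89; edgeR adjusted p = 0.997). Joint table scaling gave 0.26 for Dbh, where the median of all genes moved to 0.24. Without knockout replicate 2 the log2 fold change of Dbh was -0.36 (TSS), -0.13 (gene body) and -0.24 (TES).

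Pnmt, the adrenaline-forming enzyme, had the largest relative spread among the WT gene body libraries of any member, at 24.2 ± 19.8 CPM (SD, n = 3). Its gene body level was 16.9, 9.06 and 46.7 CPM in WT against 17.5, 77.0 and 33.2 CPM in knockout glands. The 3 deepest libraries were high in both genotypes and the 3 shallowest were low, and the groups overlapped. Its log2 fold change was 0.80 ± 0.66 (SE; 95% confidence interval -0.70 to 2.31; edgeR adjusted p = 0.934), and 0.06 without knockout replicate 2. At the TES, where Pnmt reached 248, 112 and 547 CPM in WT against 254, 873 and 438 CPM in knockout glands, the same libraries were high. The TES log2 fold change was 0.78 ± 0.37 (0.04 to 1.52; edgeR adjusted p = 0.665). This value depended on single libraries: it was 0.19 without knockout replicate 2, and 1.53 without WT replicate 3, which passed the test (edgeR adjusted p = 0.00150). At the TSS Pnmt had 19.1, 11.4 and 12.5 CPM in WT against 22.5, 23.5 and 16.1 CPM in knockout glands, a log2 fold change of 0.52 ± 0.33 (-0.21 to 1.25; edgeR adjusted p = 0.952). There the lowest knockout library lay below the highest WT library, and without knockout replicate 2 the log2 fold change was 0.41.

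Phox2a, a paired-like homeodomain factor known to act on the Dbh promoter, was even across 5 libraries at the TSS and high in the remaining one. Its TSS level was 29.4, 31.0 and 33.6 CPM in WT against 33.8, 81.9 and 38.4 CPM in knockout glands. Each knockout library lay above each WT library, knockout replicate 1 by a narrow margin. The TSS log2 fold change was 0.73 ± 0.32 (SE; 95% confidence interval 0.01 to 1.44; edgeR adjusted p = 0.871), and 0.20 without knockout replicate 2. Its gene body had 23.9, 19.6 and 34.2 CPM in WT against 23.96, 82.5 and 31.5 CPM in knockout glands, with a log2 fold change of 0.83 ± 0.45 (-0.20 to 1.85; edgeR adjusted p = 0.934). Only knockout replicate 2 exceeded the highest WT library there. At the TES the levels were 201, 144 and 291 CPM in WT against 185, 498 and 230.2 CPM in knockout glands, the groups overlapped in the same way, and the log2 fold change was 0.52 ± 0.30 (-0.09 to 1.13; edgeR adjusted p = 0.857). Without knockout replicate 2 the gene body and TES values were 0.10 and -0.04.

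Hand2, a basic helix-loop-helix factor of sympathetic neuron differentiation, had 26.1, 19.6 and 23.0 CPM at the TSS in WT against 28.7, 65.7 and 31.8 CPM in knockout glands. All 3 knockout libraries were above the WT libraries, with knockout replicate 2 far above the others. The TSS log2 fold change was 0.88 ± 0.33 (SE; 95% confidence interval 0.14 to 1.61; edgeR adjusted p = 0.727) and 0.39 without knockout replicate 2. Over its gene body Hand2 had 13.6, 10.5 and 20.2 CPM in WT against 14.0, 65.1 and 17.9 CPM in knockout glands, and the log2 fold change was 1.13 ± 0.56 (-0.16 to 2.42; edgeR adjusted p = 0.934). Knockout replicate 2 was 4.66 times the median of the other libraries there, the widest such gap of any member in any region, and the remaining knockout libraries lay within the WT range. At the TES, levels were 47.9, 52.0 and 79.2 CPM in WT against 49.8, 181 and 73.8 CPM in knockout glands. Again 1 knockout library exceeded the WT range, and the log2 fold change was 0.77 ± 0.29 (0.18 to 1.35; edgeR adjusted p = 0.392). Without knockout replicate 2 the gene body and TES log2 fold changes were 0.11 and 0.05, while the TES value passed without WT replicate 3 (1.05, edgeR adjusted p = 0.0263), knockout replicate 1 (1.07, adjusted p = 0.0163) or knockout replicate 3 (0.96, adjusted p = 0.0470).

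Hand1, the paralog of Hand2, came closest to the threshold of all members. Its TES level was 43.2, 32.4 and 51.6 CPM in WT against 43.7, 123 and 73.3 CPM in knockout glands. Knockout replicates 2 and 3 were above the WT libraries and knockout replicate 1 was within them. The TES log2 fold change was 0.91 ± 0.26 (SE; 95% confidence interval 0.38 to 1.44), 1.88-fold, with an edgeR adjusted p of 0.0941. It passed without WT replicate 3 (1.09, edgeR adjusted p = 0.0134), knockout replicate 1 (1.18, adjusted p = 0.00214) or knockout replicate 3 (0.98, adjusted p = 0.0243), and was 0.46 without knockout replicate 2 (adjusted p = 0.999817). Its gene body had 7.90, 8.06 and 11.5 CPM in WT against 12.1, 38.6 and 11.9 CPM in knockout glands. The groups did not overlap, although knockout replicates 1 and 3 stood only just above WT replicate 3. The gene body log2 fold change was 1.19 ± 0.46 (0.12 to 2.25; edgeR adjusted p = 0.890), and 0.39 without knockout replicate 2. At the TSS the counts were 10 to 45 per library, or 6.53, 10.3 and 12.5 CPM in WT against 5.63, 12.3 and 5.49 CPM in knockout glands. There knockout replicates 1 and 3 were the 2 lowest libraries, and the log2 fold change was -0.30 ± 0.47 (edgeR adjusted p = 0.982), or -0.82 without knockout replicate 2.

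Insm1, a zinc-finger factor of neuroendocrine differentiation, had 6.36, 6.04 and 11.8 CPM in the gene body in WT against 7.11, 24.03 and 10.6 CPM in knockout glands. Only knockout replicate 2 was outside the WT range, and the log2 fold change was 0.79 ± 0.46 (SE; edgeR adjusted p = 0.934), or 0.14 without it. At the TSS the levels were 10.9, 17.6 and 11.8 CPM in WT against 10.1, 20.8 and 15.4 CPM in knockout glands, with a log2 fold change of 0.26 ± 0.38 (edgeR adjusted p = 0.982). At the TES they were 34.3, 36.3 and 45.9 CPM in WT against 32.2, 52.6 and 37.4 CPM in knockout glands. The TES groups overlapped widely and the log2 fold change was 0.07 ± 0.25 (95% confidence interval -0.43 to 0.57; edgeR adjusted p = 0.991). Joint table scaling gave -0.036, above the median of all genes, which moved to -0.12.

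Isl1, a LIM homeodomain factor of sympathetic and other neurons, was the only member whose TES groups did not overlap. Its TES level was 23.1, 24.5 and 20.6 CPM in WT against 39.9, 46.6 and 29.01 CPM in knockout glands. Here knockout replicate 1, one of the shallower libraries, was also above the WT libraries. The TES log2 fold change was 0.77 ± 0.29 (SE; 95% confidence interval 0.18 to 1.36; edgeR adjusted p = 0.388), 0.60 without knockout replicate 2 and 0.82 with a depth class term (edgeR adjusted p = 0.249). In the gene body Isl1 had 9.67, 10.5 and 8.28 CPM in WT against 9.40, 17.5 and 13.1 CPM in knockout glands, with knockout replicate 1 inside the WT range and a log2 fold change of 0.50 ± 0.25 (edgeR adjusted p = 0.934), or 0.26 without knockout replicate 2. At the TSS it had 38.1, 33.1 and 51.2 CPM in WT against 36.6, 123 and 52.0 CPM in knockout glands. Knockout replicate 2 was 3.23 times the median of the other libraries there, and the log2 fold change of 0.78 ± 0.39 (-0.06 to 1.63; edgeR adjusted p = 0.918) was 0.10 without it.

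Counted by groups that did not overlap, all 3 knockout libraries lay above all 3 WT libraries for Phox2a and Hand2 at the TSS (2 members), Hand1 in the gene body (1) and Isl1 at the TES (1). Over all tested genes the shares were 6.47%, 6.51% and 6.69%. No member had this separation in more than 1 region.

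**Figure D2:**
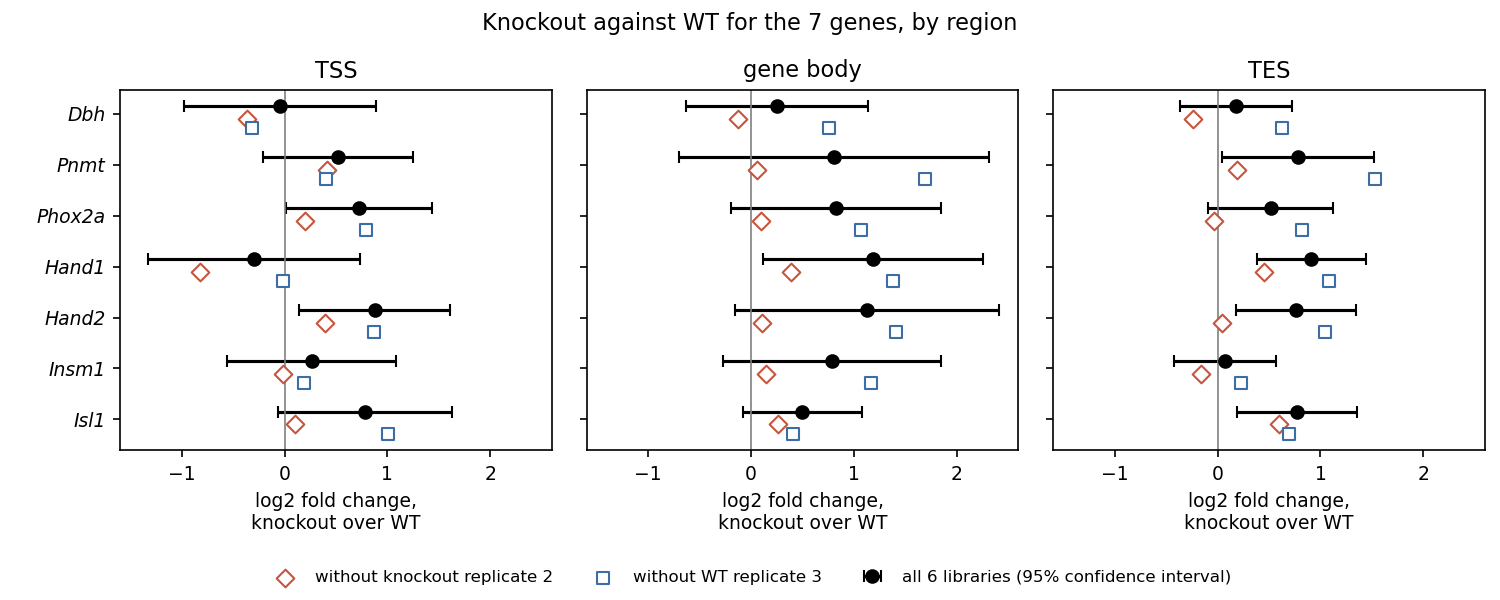
Log2 fold change of knockout over WT for each gene and region with its 95% confidence interval, from all 6 libraries (filled circles), without knockout replicate 2 (open diamonds) and without WT replicate 3 (open squares). Values lay between -0.30 and 1.19 with all libraries and between -0.82 and 0.60 without knockout replicate 2.

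The genes differed in how their reads were spread along them. Over all libraries, Pnmt had 52.7% of its counts at the TES and 2.73% at the TSS. Genes of like length (within 1.25-fold, 214 genes) had a median of 24.6% at the TES and 25.3% at the TSS, and the Pnmt TSS share was at their 0.467th percentile. The TES share of Pnmt was even across libraries, at 55.1%, 48.9% and 53.9% in WT against 52.5%, 50.6% and 55.4% in knockout glands. Phox2a likewise had 37.2% of its counts at the TES, against a like-length median of 18.7%.

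Dbh had 1.997% of its counts at the TSS against a median of 14.8% in 1719 genes of like length, and 15.6% at the TES against 10.5%. Isl1 was at the other end: 36.3% of its counts were at the TSS, the 93.0th percentile of 1431 genes of like length with a median of 16.6%. Its TSS share was 24.6%, 17.6% and 41.0% in WT against 25.3%, 47.1% and 30.5% in knockout glands, highest in knockout replicate 2 and WT replicate 3, the 2 deepest libraries. Hand1, Hand2 and Insm1 lay between, with TSS shares of 4.96%, 11.9% and 10.7%, each below the median of genes of their length (23.2%, 22.9% and 23.97%). Window widths are not given in the sources used, and windows of a short gene such as Pnmt (1558 bp) may cover much of it.

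**Figure D3:**
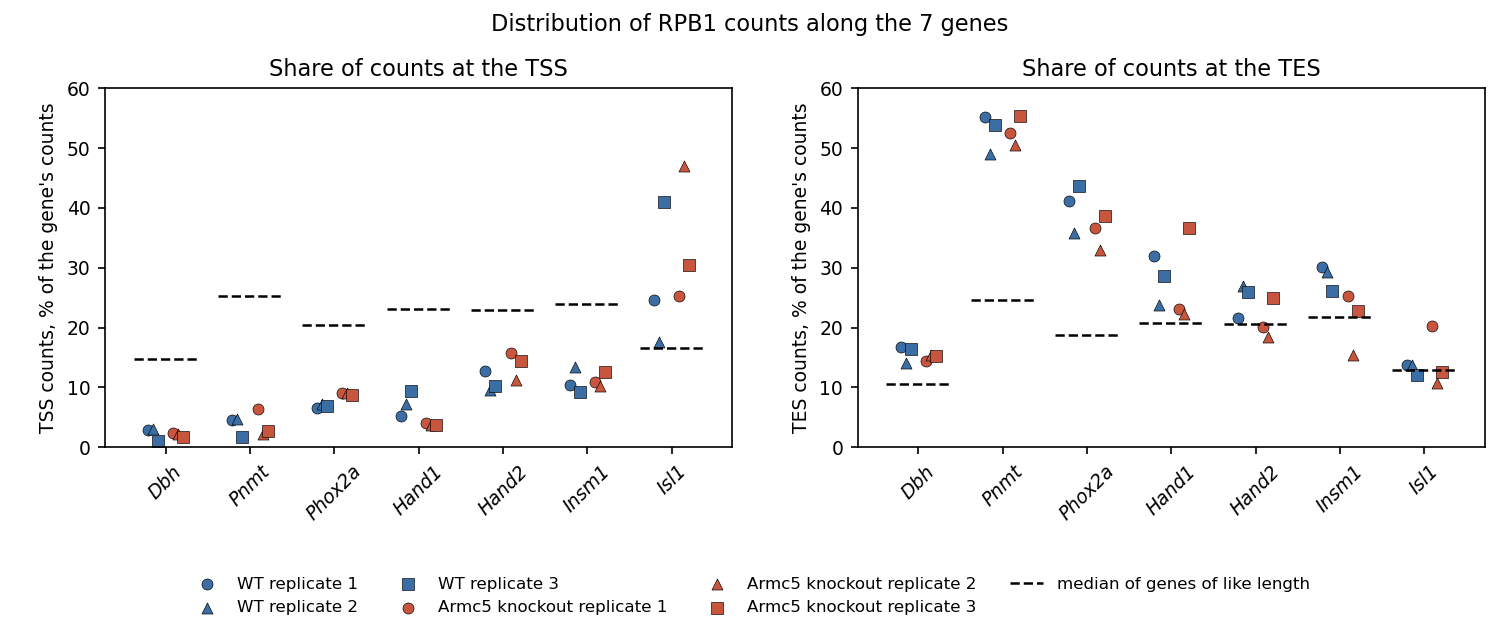
Percent of each gene's counts at the TSS and at the TES in each library, with the median of genes of like length marked. Isl1 stands above its like-length median at the TSS and Pnmt stands above it at the TES in all 6 libraries.

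Whether this distribution differed by genotype was tested on each gene's ratio of end-region counts (TSS or TES) to its gene body counts. None of the 7 members was called for either ratio, where 0% of all genes were called for the TSS ratio and 0.0158% for the TES ratio. At an unadjusted p under 0.05 there was 1 member for the TSS ratio and 0 for the TES ratio, where 3.64% and 5.7% of all genes passed that level. The member was Hand1: its ratio of TSS CPM to gene body CPM was 0.827, 1.28 and 1.08 in WT and 0.466, 0.319 and 0.460 in the knockout. The log2 change was -1.41 ± 0.33 (SE; 95% confidence interval -2.17 to -0.64; edgeR adjusted p = 0.955), and -1.18 without knockout replicate 2. These ratios rest on TSS counts of only 10 to 45 reads per library. The lowest adjusted p for Hand1 among the alternatives was 0.196, with depth class as a covariate. The TSS ratio changes of the other 6 members ran from -0.45 (Insm1) to 0.16 (Isl1), and the TES ratio changes from -0.64 (Insm1, edgeR adjusted p = 0.839) to 0.26 (Isl1).

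Levels of different genes were compared as gene body CPM divided by the full RefSeq gene length. The width of the counted gene body window is not given, so the levels and their order are approximate, above all for a short gene such as Pnmt. Pnmt was the highest of the 7, with 15.5 ± 12.7 CPM per kb in WT (SD, n = 3) and 27.3 ± 19.8 in the knockout. It lay between the 94.5th and 99.5th percentile of the 12384 genes matched to RefSeq in the WT libraries. Phox2a followed with 5.87 ± 1.69 CPM per kb in WT and 10.4 ± 7.22 in the knockout, then Hand2 with 4.17 ± 1.40 and 9.14 ± 8.05. Dbh, Hand1 and Insm1 had nearly the same WT level per length, 2.71 ± 1.40, 2.67 ± 0.598 and 2.66 ± 1.06 CPM per kb, and had 3.24 ± 1.33, 6.07 ± 4.47 and 4.61 ± 2.95 in the knockout. Dbh was above Hand1 in 1 of the 6 libraries. Isl1 was lowest, at 0.830 ± 0.098 in WT and 1.17 ± 0.353 in the knockout, between the 5.31st and 17.3rd percentile in the WT libraries. The WT ranges of neighbours in this order overlapped except for Insm1 and Isl1, although Pnmt was above Phox2a, Phox2a above Hand2 and Hand2 above Dbh in each of the 6 libraries.

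Several members lie close to other genes, so their windows can share reads. Pnmt (GRCm38.p6 chromosome 11, 98386623 to 98388180) lies 491 bp from Pgap3, a GPI-anchor remodelling gene, and 1669 bp from Tcap, a sarcomere gene. Tcap had 0.608 to 1.04 CPM in the gene body but 79.8, 47.1 and 162 CPM at the TES in WT against 104, 308 and 137 CPM in knockout glands. That is the order of libraries seen for Pnmt at the TES, and the Tcap log2 fold change was 0.90 ± 0.32 (SE; edgeR adjusted p = 0.307). The Pgap3 TES had 240.1, 142 and 642 CPM in WT against 252, 1101 and 450.5 CPM in knockout glands, also in that order, with a log2 fold change of 0.81 ± 0.39 (edgeR adjusted p = 0.674). The TSS log2 fold change of Pgap3 was -0.20 ± 0.20 (edgeR adjusted p = 0.960).

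Phox2a (chromosome 7, 101818313 to 101822726) overlaps the end of Inppl1, a phosphoinositide phosphatase gene on the other strand, by 95 bp. The Inppl1 TES had 172, 141 and 234 CPM in WT against 163, 407 and 193 CPM in knockout glands, with a log2 fold change of 0.48 ± 0.29 (edgeR adjusted p = 0.882). Hand1 (chromosome 11, 57828713 to 57832147) overlaps the lncRNA gene Gm32915 by 40 bp. Hand2 (chromosome 8, 57320983 to 57324517) lies 123 bp from the lncRNA gene Hand2os1, and Dbh (chromosome 2, 27165507 to 27183204) lies 2803 bp from Dbhos. Insm1 (chromosome 2, 146221997 to 146225020) and Isl1 (chromosome 13, 116298270 to 116309688) had no annotated neighbour within 5 kb. ChIP reads carry no strand of transcription, so how reads divide between these pairs was not tested.

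Likeness to Pnmt, Dbh and Isl1 was sought only among genes with a mean gene body CPM at or above the median, without predicted Gm and Rik genes. By the root mean square difference of centred log2 CPM over the 6 gene body libraries, the genes most like Pnmt were Chga (0.285), Pgap3 (0.292) and Dlk1 (0.402), where the median over 6186 genes was 1.01. Chga, the chromogranin A gene of the secretory granules, had 90.1, 67.8 and 180.6 CPM in WT against 88.3, 346 and 175 CPM in knockout glands, again high in the 3 deepest libraries. Dlk1 encodes a transmembrane ligand-like protein found in the adrenal gland. The genes most like Dbh were Cyb561 (0.167), which encodes the cytochrome b561 that supplies electrons for Dbh inside the granule, Ampd3 (0.178) and Cdc26 (0.188), with a median over genes of 0.538. The genes most like Isl1 were Slc7a8 (0.0871), Lgr5 (0.106) and Ptprn (0.112), with a median of 0.400. These genes were measured in the same 6 libraries, and the part of depth in the distances was not tested. Pgap3 lies 491 bp from Pnmt, and the part of shared reads in their likeness was not tested either.

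The remaining genes of the catecholamine pathway, for synthesis, cofactor supply, storage and breakdown, were measured for 11 of 13 listed, and 1 was called higher, at the TES. It was Gch1, GTP cyclohydrolase, the first enzyme of the tetrahydrobiopterin cofactor, with 67.4, 37.3 and 56.0 CPM in WT against 109.6, 154 and 65.4 CPM in knockout glands. The knockout libraries were higher except that knockout replicate 3 lay just below WT replicate 1. Its TES log2 fold change was 1.01 ± 0.26 (SE; edgeR adjusted p = 0.0393), and the call ended without knockout replicate 2 (adjusted p = 0.628) or WT replicate 2 (0.271), with DESeq2 (0.137) and under 5 other settings. Among the other lineage genes, 9 of 14 were measured and 1 was called, Cited2, a CBP and p300 binding cofactor. Its TES level rose from 235, 133 and 140.4 CPM in WT to 417, 309 and 333 CPM in the knockout, without overlap (log2 fold change 1.05 ± 0.27, edgeR adjusted p = 0.0451), and the call ended under joint table scaling (0.126), RLE scaling (0.0516) and cyclic loess (0.0838), and without any 1 of 5 libraries (0.0739 to 0.244). The share of all genes called higher at the TES was 0.82%. All 9 lineage genes had a gene body log2 fold change above 0, with a median of 0.56, and none was called there. Both lists also had their highest sums in knockout replicate 2 at the TSS, gene body and TES. Relative to the median of the other libraries, it was at 1.13, 1.39 and 1.31 times for the catecholamine list. For the lineage list it was at 1.22, 1.37 and 1.38 times.

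No gene was called among the regulators of Pnmt transcription (3 of 5 measured) or the chromaffin granule and exocytosis genes (17 of 18 measured). Their gene body log2 fold changes had medians of 0.03 and 0.22, and 11 of the 17 granule genes were above 0. The 17 granule genes summed to 1015, 815 and 1334 CPM at the TES in WT against 954, 2173 and 1243 CPM in knockout glands. Knockout replicate 2 was thus 2.14 times the median of the other libraries for the granule sum, as it was 2.03 times at the TSS and 1.42 times in the gene body. Abundant genes carried the TES sum, with Chga at 728, Scg2 at 297, Chgb at 278 and Cplx2 at 265 CPM in that library. Others lay within the range of the other libraries, such as the proenkephalin gene Penk, at 10.5 CPM against 8.36 to 29.1 CPM in the other libraries, and the prohormone convertase gene Pcsk2, at 12.8 against 8.75 to 29.4 CPM. Chga, Scg2, Chgb, Cplx2, Penk and Pcsk2 were singled out here after their values were seen. The chromaffin markers Chga, Chgb, Slc18a1 and Scg2 had gene body counts in all libraries. So did every measured gene of the other lists, and no input was subtracted, so this does not set the markers apart. Slc18a1, a vesicular monoamine transporter, had 79.3, 75.2 and 99.2 CPM in WT against 92.7, 179 and 129.6 CPM in knockout glands.

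Markers of other cells in the gland were examined beside the members. The 12 adrenal cortex steroid genes had no call and summed to 8055, 3240.3 and 5177 CPM in the gene body in WT against 5702, 6484 and 5026 CPM in knockout glands. For them knockout replicate 2 was 1.25 times the median of the other libraries, against 3.14 times for the sum of the 7 members. Neuronal (7 of 10 measured), Schwann and glia (4 of 8), endothelial (6 of 7) and macrophage genes (6 of 8) also had no call in any region, with knockout replicate 2 at 1.22, 1.04, 0.898 and 1.07 times that median in the gene body. At the TSS it was 1.57 times for the neuronal and 1.43 times for the Schwann and glia genes, near the 1.47 times of Dbh and Pnmt together and below the 2.65 times of the 5 transcription factors. Of the capsule and fibroblast genes, 5 of 9 were measured and 3 fell at the TES, where 0.0946% of all genes were called lower: Pdgfra (log2 fold change -1.71, edgeR adjusted p = 0.000538), Col3a1 (-1.33, adjusted p = 0.0145) and Mgp (-1.59, adjusted p = 0.000330). The Col3a1 call ended with DESeq2 (adjusted p = 0.0523), cyclic loess (0.0649) and with any of 3 libraries left out (0.0547 to 0.133), and the Pdgfra call ended with limma-voom (0.0722) and cyclic loess (0.239), as did the Mgp call with cyclic loess (0.0605). The capsule list summed to 169, 419 and 330.2 CPM at the TES in WT against 143, 123 and 109.7 CPM in knockout glands, without overlap. The part of cell composition in the values of the 7 members was not tested.

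**Figure D4:**
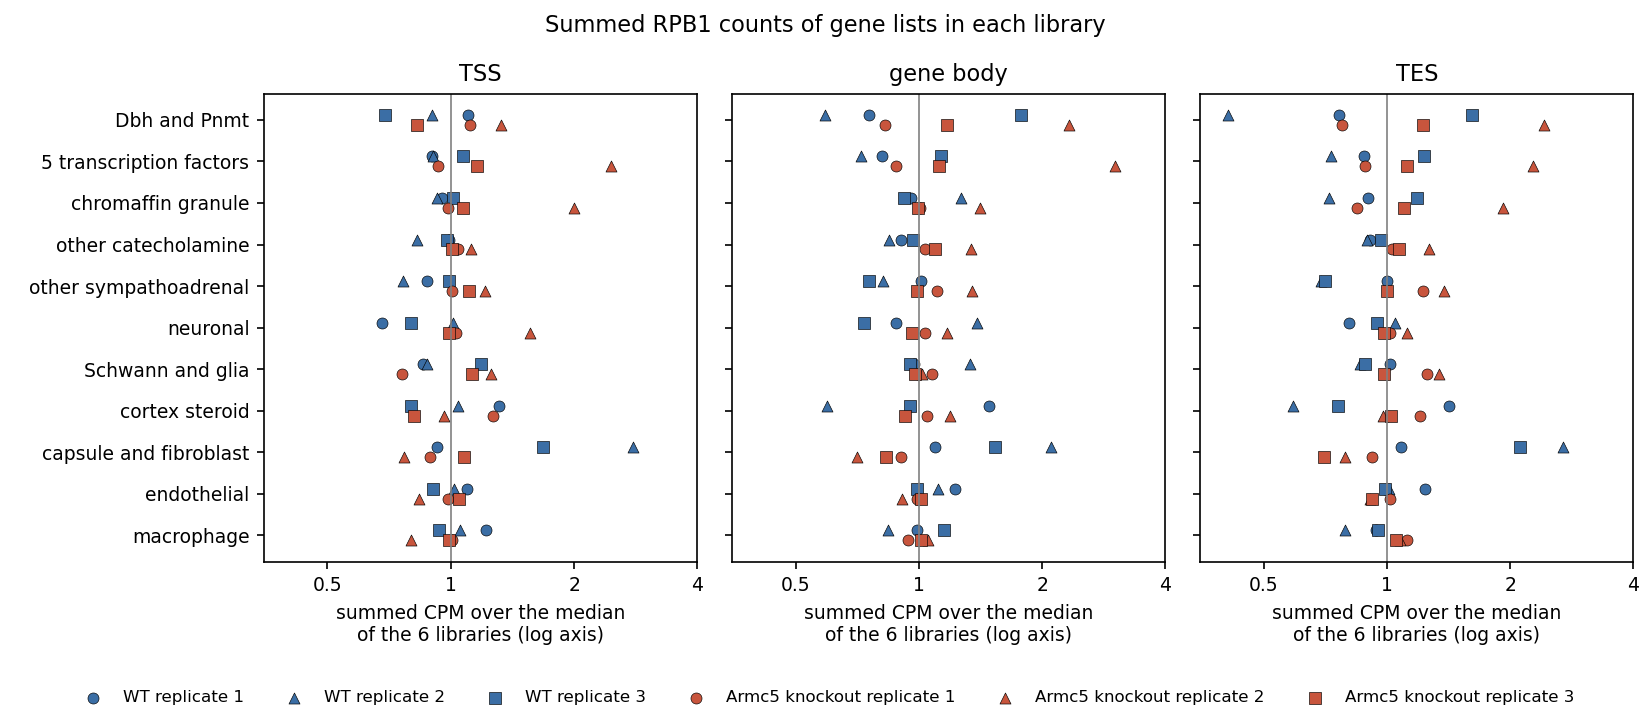
Summed CPM of each gene list in each library relative to the median of the 6 libraries (log axis), for the 3 regions. The sums of the enzymes, the transcription factors and the granule genes were highest in knockout replicate 2 in all 3 regions. So were the sums of the other catecholamine and other sympathoadrenal genes. The capsule and fibroblast sum at the TES was lower in each knockout library than in each WT library.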

How the data were processed

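RPB1 ChIP-seq libraries of 3 WT and 3 knockout mice were compared. The authors deposited whole-number counts per gene for the TSS, gene body and TES (12718 genes each), a joint count table of 38154 entries that stacks them (0 cells differed), and log2 CPM of that table, which matched the limma-voom formula (0 cells differed) and was not tested. The submitters' processing notes list limma, edgeR, HOMER, MACS2, Picard, BWA, Trimmomatic and bcl2fastq 2.20, with builds GRCm38 and mm10. The sources used here do not give the counting tool, window widths, read filters or any input library, and no input was subtracted here.

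Each region table was fitted as a whole with edgeR 4.0.16 in R 4.3.3: TMM scaling, filterByExpr (minimum count 10, minimum total 15), the quasi-likelihood F test with no covariate, and Benjamini-Hochberg adjustment over all tested genes, with calls at an adjusted p under 0.05. The filter kept 12682 (TSS), 12714 (gene body) and 12680 (TES) genes, and all 7 members in each. The SE is the size of the log2 fold change over the square root of F. Ratios were tested as a region by genotype interaction with library as a block. Shares of a gene's counts use raw counts. Alternatives were RLE scaling, table totals, joint table scaling, other filters, DESeq2 1.42.0, limma-voom and cyclic loess (limma 3.58.1), replicate block, mouse number series, depth class, and each library left out. The fits were also run on simulated data with known changes. Those changes were larger than the members' and no simulated library stood apart, so the runs do not show whether changes like the members' would be called.

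All 7 members are named. Beside them are named called genes of each list, the 3 genes most like Dbh, Pnmt and Isl1, and neighbours within 5 kb. Chromaffin markers are also named, as are granule genes picked after their values were seen. The members and lists were chosen with earlier results of these data known. Of the symbols, 12384 matched RefSeq, which also gave coordinates (1-based, GRCm38.p6). No entry for Pnmt, Hand1 or Insm1 was found in the promoter set used here, so no sequence is shown for them. The replicate numbers in the titles are not stated to pair mice, and the main test did not treat them as pairs. P-values set the genotype difference against the variation within genotypes among these 6 mice, which was estimated partly across genes.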

Additional observations from a re-analysis of the deposited data

How the results depend on the processing

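With 3 mice per genotype and knockout replicate 2 apart from the rest, the members' fold changes have wide intervals, and TSS counts as low as 10 reads limit the TSS values. Over the 7 members, 3 regions and 2 ratios there were 35 log2 values and 523 recomputed ones. Of these 471 kept their direction and stayed uncalled, 44 changed sign and 8 passed the threshold. None of the 35 main values was called, so no call could be lost. The cause of the sign changes and new calls was not tested. The count of called members was 0 for the TSS, the gene body and both ratios under every alternative run. At the TES it was 0, with 1 under the replicate block (Hand1, 0.79, edgeR adjusted p = 0.0338) and from 0 to 3 with each library left out. It was 3 without WT replicate 3 (Pnmt, Hand1 and Hand2), 2 without knockout replicate 1 and 2 without knockout replicate 3 (Hand1 and Hand2 each time). Over the libraries left out, the TES log2 fold change ran from 0.19 to 1.53 for Pnmt, from 0.46 to 1.18 for Hand1 and from 0.046 to 1.07 for Hand2.

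The replicate numbers were checked for pairing: same-numbered WT and knockout libraries deviated together with correlations of 0.44, -0.21 and 0.36 (TSS), 0.08, -0.58 and 0.27 (gene body) and 0.03, -0.31 and 0.21 (TES). With so few libraries per genotype, these correlations cannot decide whether same-numbered mice were paired. With the replicate block, all-gene calls went from 43 to 100 (TSS), 32 to 0 (gene body) and 116 to 194 (TES). Over the alternatives other than the block and left-out libraries they ran from 36 to 158, 0 to 179 and 61 to 184, and with a library left out from 5 to 84, 0 to 37 and 73 to 148.

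The TSS log2 fold change of Dbh was 0.085 with table totals, 0.26 with joint table scaling, 0.11 with limma-voom, 0.075 with cyclic loess and 0.11 with depth class. With depth class the TES values were -0.062 for Dbh and -0.071 for Insm1, and with joint table scaling -0.036 for Insm1. Joint table scaling moved the median of all genes to 0.24 (TSS), -0.12 (gene body) and -0.12 (TES). For the TSS to gene body ratio, gene body scaling moved the median of all genes to 0.35 and gave 0.014 for Dbh, 0.073 for Pnmt, 0.31 for Phox2a and 0.30 for Hand2, and depth class gave 0.16, 0.33, 0.10 and 0.15 for these and -0.060 for Isl1. For the TES ratio of Pnmt, gene body scaling gave -0.0056.

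With each library left out, the ranges that crossed 0 were -0.36 to 0.14 (Dbh) and -0.019 to 0.47 (Insm1) at the TSS, -0.13 to 0.76 (Dbh) for the gene body, and -0.24 to 0.63 (Dbh), -0.038 to 0.82 (Phox2a) and -0.16 to 0.23 (Insm1) at the TES. For the TSS ratio they were -1.08 to 0.045 (Dbh), -1.09 to 0.24 (Pnmt), -0.22 to 0.12 (Phox2a), -0.33 to 0.28 (Hand2) and -0.15 to 0.46 (Isl1), and for the TES ratio -0.077 to 0.10 (Pnmt) and -0.45 to 0.047 (Hand1).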
